A study of Mus musculus with 11 samples.

Results

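The genes described here encode the enzymes that cut the extracellular matrix and the inhibitors that restrain them: the matrix metalloproteinases (MMP, genes named Mmp), the ADAMTS proteases (secreted metalloproteinases with a disintegrin-like domain and thrombospondin motifs) and the tissue inhibitors of metalloproteinases (TIMP). Members were all genes in the count files with such a symbol, Mmp12 excepted, that had at least 10 counts in at least 2 libraries. Of 45 genes matched by symbol, 37 met this rule, namely 16 Mmp, 17 Adamts and 4 Timp genes, among 25006 genes in the files. The samples were left ventricles of 11 mice, with 1 stranded mRNA library each. They form 4 groups: naive control (M44 and M45, n = 2), naive Vegfc-deficient (M149, M150 and M34, n = 3), MI control (M006, M38 and M40, n = 3) and MI Vegfc-deficient (M35, M900 and M913, n = 3). MI (myocardial infarction) was made by permanent ligation of the left anterior descending coronary artery 2 mm from the left atrium, and infarcted tissue was taken 9 days later. Naive hearts gave left ventricle of similar mass and place. The Vegfc-deficient mice were Vegfc fl/fl with LysMCre, a Cre recombinase driven in myeloid cells (macrophages and also neutrophils), so cells outside that lineage kept Vegfc. The genotype labels give the controls as Vegfc fl/fl without Cre, whereas the extraction protocol calls them LysMCre mice, and the age of the mice is not given in the sources used here.

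Several facts of the libraries bear on all comparisons. Total counts ran from 10824989 to 26782728, and 3 counts, used here as the floor, correspond to 0.101 to 0.363 CPM (counts scaled to a common library size by the TMM method), covering counting error only. All values below are such CPM unless stated otherwise. The sum of 8 cardiomyocyte markers was 44490 to 62444 CPM in naive and 2104 to 18141 CPM in MI libraries, and none of the 8 was at 0 in any library. The sum of 8 fibroblast markers was 4828 to 6730 CPM in naive and 29965 to 47562 CPM in MI libraries, and that of 8 macrophage markers was 1453 to 2207 CPM and 1993 to 4840 CPM. Markers within these 2 lists did not move alike between naive and MI hearts. In control and Vegfc-deficient hearts, the log2 fold change by MI was 4.93 and 4.92 for Col1a1 but 0.02 and 0.13 for Dcn. Among macrophage markers it was 1.79 and 1.59 for Adgre1 but -0.30 and -0.08 for Mrc1. In bulk tissue, fewer cells of a type and less RNA per cell cannot be told apart, and the part of these shifts in the results was not tested. The sum of 4 Y-linked genes was 152 to 195 CPM in naive and 0 to 1.84 CPM in MI libraries, so sex and MI cannot be told apart. Vegfc, the targeted gene, was at 25.1 and 34.7 CPM in naive control, at 27.4, 34.5 and 30.6 CPM in naive Vegfc-deficient, at 45.5, 21.9 and 25.8 CPM in MI control and at 29.4, 25.3 and 22.4 CPM in MI Vegfc-deficient libraries, so in whole ventricle the genotypes overlapped and the deletion in myeloid cells could not be checked with it. Lyz2, the gene into which LysMCre is inserted, was at 2121 to 5380 CPM in control and at 12.4 to 1392 CPM in 5 of the 6 Vegfc-deficient libraries. The sixth, M149, labelled naive Vegfc-deficient, was at 4565 CPM and so goes against its label, and results that rest on it are given with and without it.

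MMP proteins are made as inactive zymogens that need cleavage of a propeptide, and together they cut collagens, gelatin, fibronectin and proteoglycans. ADAMTS enzymes are more specialised: some trim the N-propeptide from procollagens, some cut aggrecan and versican, and some act on fibrillin microfibrils or on COMP (cartilage oligomeric matrix protein). TIMP proteins block the active site of these enzymes, and in the infarcted heart the balance of enzyme and inhibitor is known to bear on how the scar forms and whether the wall ruptures.

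In both genotypes, more members passed as higher than as lower after MI. In control hearts, 18 of 37 members were higher in MI at an adjusted p under 0.05, among them 7 Mmp, 8 Adamts and 3 Timp genes, beside 26.3% of all 14779 genes tested (members, 48.6%). Only Mmp15 and Timp4 were lower in control hearts, 2 of 37 members beside 24.1% of all genes (members, 5.41%). In Vegfc-deficient hearts, 21 members were higher (9 Mmp, 9 Adamts and 3 Timp, 56.8% of members) beside 30.0% of all genes, and the same 2 genes were lower beside 27.7% of all genes. There were 17 members (45.9%) that passed as higher in both genotypes beside 21.2% of all genes, and 2 (5.41%) that passed as lower in both beside 21.2%. A further 4 members (Mmp10, Mmp27, Mmp28 and Adamts3) passed as higher in Vegfc-deficient but not in control hearts beside 8.80% of all genes, 1 (Mmp25) passed as higher in control but not in Vegfc-deficient hearts beside 5.05%, and 13 passed in neither beside 34.3%. None of these 5 differed between the genotypes by the interaction at an adjusted p under 0.05. The median log2 fold change of the members was 1.33 in control and 1.65 in Vegfc-deficient hearts, where the median of all genes was 0.13 and 0.10, and setting the genes with a naive group at 0 to their lower bound left both medians at these values. The filter on low counts kept 6 members (Mmp8, Mmp10, Mmp25, Adamts4, Adamts16 and Adamts20) that would have failed it in the naive libraries alone. Of these, Mmp8, Adamts4 and Adamts16 passed as higher in both genotypes, Mmp25 in control and Mmp10 in Vegfc-deficient hearts. Being kept through the MI libraries favours such calls, and the same filter was applied to all genes. The plot of fold changes sets the genotypes side by side.

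**Figure D1:**
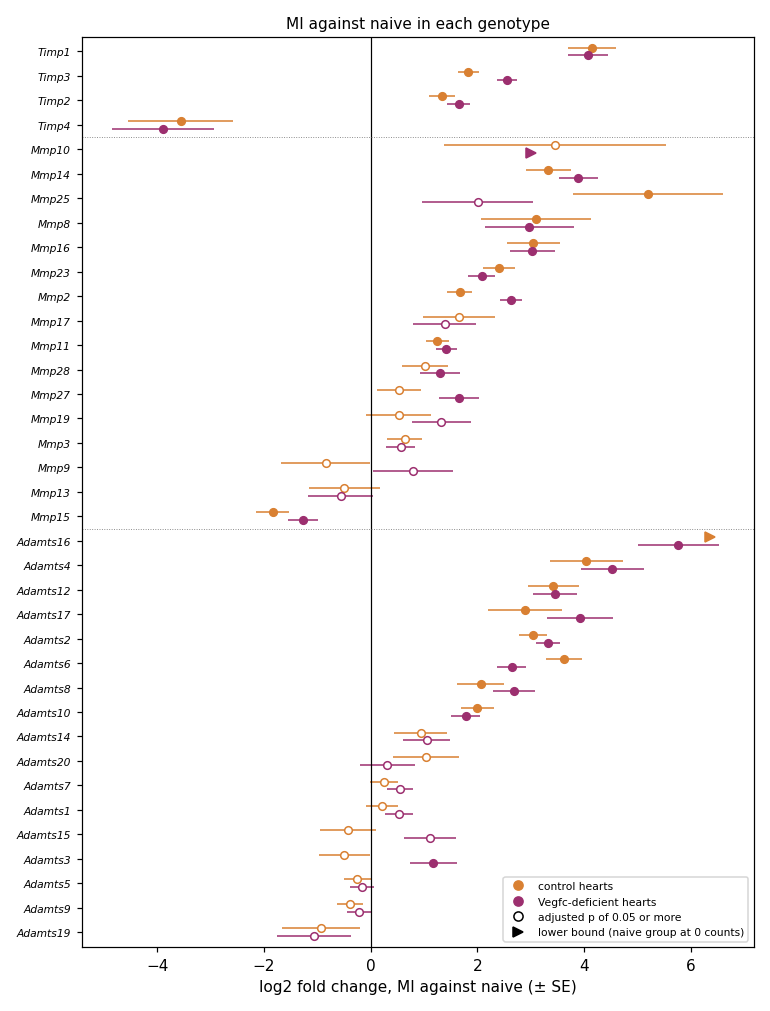
Log2 fold change of each of the 37 members, MI against naive, with its SE, in control (orange) and Vegfc-deficient (purple) hearts, filled where the adjusted p was under 0.05; triangles are lower bounds where the naive group had 0 counts. Timp4 and Mmp15 lie left of 0 in both genotypes, and Timp1, Timp2 and Timp3 lie right of it.

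Of the 4 inhibitors, 3 rose and 1 fell in both genotypes, beside 21.2% of all genes higher in both and 21.2% lower in both. Timp1, a broadly acting inhibitor that is induced by injury and inflammation, was at 14.6 and 17.5 CPM in naive control, at 13.2, 21.7 and 22.1 CPM in naive Vegfc-deficient (M149, M150, M34), at 155, 279.8 and 417 CPM in MI control (M006, M38, M40) and at 239, 369.6 and 349 CPM in MI Vegfc-deficient libraries (M35, M900, M913). Every MI library lay above every naive library, with M006 the lowest of the MI libraries. The log2 fold change was 4.14 ± 0.45 (SE, adjusted p = 2.00e-04) in control and 4.07 ± 0.38 (adjusted p = 4.50e-05) in Vegfc-deficient hearts. Timp1 lies on the X chromosome (20870166 to 20874735, + strand, GRCm38). The part of sex in its rise was not tested.

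Timp2, which besides inhibiting takes part in the activation of pro-MMP2 by MMP14 at the cell surface, was at 298 and 279.7 CPM in naive control and at 356, 241 and 226 CPM in naive Vegfc-deficient libraries. It was at 703, 634 and 846 CPM in MI control and at 793, 948 and 847 CPM in MI Vegfc-deficient libraries. All MI values exceeded all naive values, and the log2 fold change was 1.33 ± 0.24 (adjusted p = 0.00162) in control and 1.65 ± 0.21 (adjusted p = 1.62e-04) in Vegfc-deficient hearts. Timp3, the TIMP that stays bound to the matrix and also inhibits ADAM17 and several ADAMTS enzymes, was at 55.1 and 57.5 CPM in naive control and at 47.8, 56.3 and 65.2 CPM in naive Vegfc-deficient libraries. After MI it was at 204, 159 and 239 CPM in control and at 318, 332 and 345 CPM in Vegfc-deficient libraries. The naive groups overlapped for Timp3 and the MI groups did not, and its log2 fold change by MI was 1.83 ± 0.20 (adjusted p = 2.06e-04) in control and 2.56 ± 0.18 (adjusted p = 2.19e-05) in Vegfc-deficient hearts.

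Timp4, the TIMP with the most heart-restricted expression, went the other way. It was at 252 and 223 CPM in naive control, at 191, 213 and 303 CPM in naive Vegfc-deficient, at 30.0, 29.3 and 1.21 CPM in MI control (M006, M38, M40) and at 22.9, 3.77 and 21.2 CPM in MI Vegfc-deficient libraries (M35, M900, M913). The MI libraries all lay far below the naive ones, and M40 and M900 lay below the other 4. Timp4 fell by 3.56 (SE 0.98, adjusted p = 0.0124) on the log2 scale in control and by 3.89 (SE 0.95, adjusted p = 0.00578) in Vegfc-deficient hearts. Cardiomyocyte markers moved with it: their sum was lowest in M40 (2104 CPM) and M900 (4201 CPM), the same libraries in which Timp4 was lowest. Per 1000 CPM of those markers, Timp4 ranged over 3.42 to 6.06 CPM among naive libraries and was 4.58, 3.09 and 0.575 CPM in MI control and 1.26, 0.898 and 2.67 CPM in MI Vegfc-deficient libraries, so on this scale M006 lay within the naive range and the other 5 MI libraries lay below it. The part of cardiomyocyte content in the fall of Timp4 was not tested. Each of Timp1, Timp3 and Timp4 overlaps a synapsin gene on the other strand, and Syn2, which overlaps Timp4, was at 0.66 to 5.53 CPM over the 11 libraries. In M40 and M900, where Timp4 was at 1.21 and 3.77 CPM, Syn2 was at 0.66 and 1.22 CPM.

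**Figure D2:**
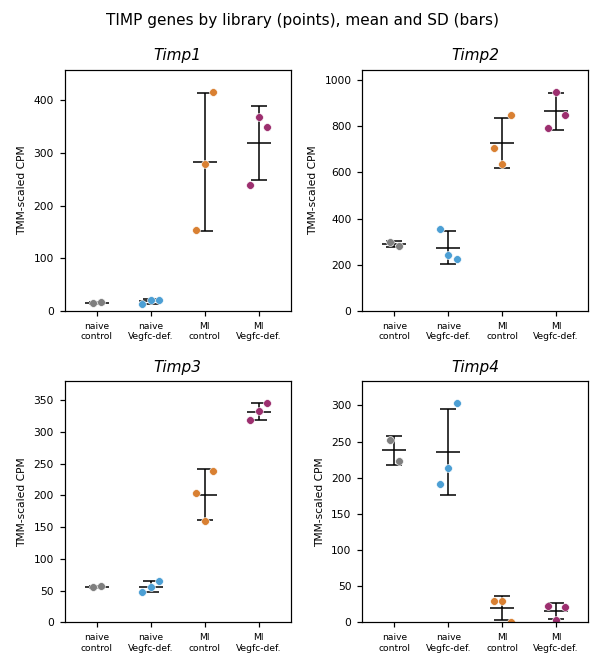
CPM of Timp1, Timp2, Timp3 and Timp4 in each of the 11 libraries (points, coloured by group), with the group mean and SD as bars, on linear axes from 0. MI libraries sit above naive libraries for Timp1, Timp2 and Timp3 and below them for Timp4.

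Per kilobase of exon, a scale on which genes can be compared, the make-up of the inhibitor pool differed between naive and MI hearts (values without a test). Timp2 made up 53.1% ± 0.750 (SD, n = 2) of the TIMP level in naive control and 50.6% ± 11.5 (n = 3) in naive Vegfc-deficient hearts, and 36.5% ± 9.00 (n = 3) and 35.8% ± 3.30 (n = 3) in the MI groups. Timp1 went from 12.99% ± 2.04 and 15.6% ± 4.59 in the naive groups to 57.9% ± 10.97 and 57.2% ± 4.29 in the MI groups. Timp4 was 28.9% ± 1.59 and 28.9% ± 6.92 of the pool in naive hearts, and 0.781% ± 0.672 and 0.464% ± 0.338 after MI. Naive hearts thus held mainly Timp2 and Timp4 transcripts by this scale and MI hearts mainly Timp1 and Timp2. The summed TIMP level was 139.5 ± 4.36 and 138.7 ± 8.14 CPM per kilobase in the naive control and naive Vegfc-deficient groups and 534 ± 168 and 624 ± 96.7 in the MI groups.

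**Figure D3:**
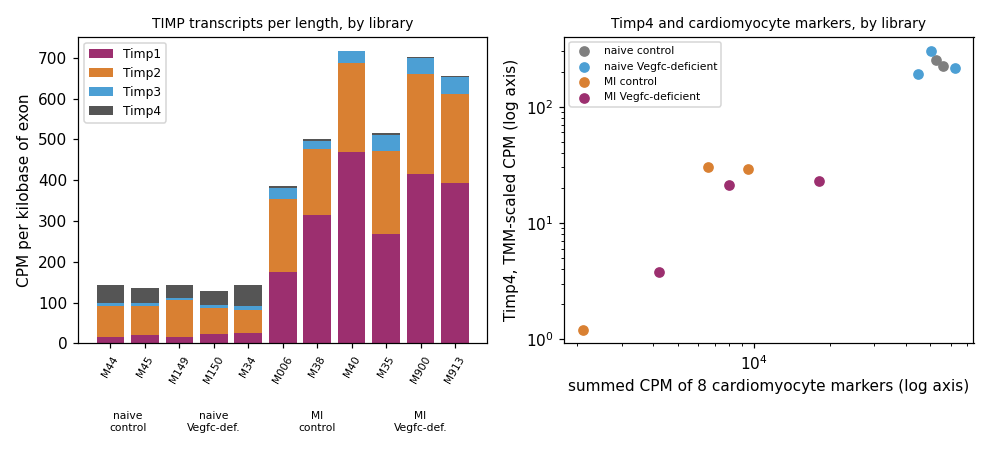
Left, CPM per kilobase of exon of the 4 TIMP genes stacked for each library. Right, Timp4 CPM against the summed CPM of 8 cardiomyocyte markers for each library, both on log axes; M40 (1.21 CPM) and M900 (3.77 CPM) lie lowest.

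The summed MMP level, given without a test, went from 99.4 ± 0.386 and 81.9 ± 5.93 CPM per kilobase in naive control and naive Vegfc-deficient hearts to 307 ± 38.03 and 374 ± 70.6 in the MI groups. The summed ADAMTS level was 35.5 ± 1.06 and 32.2 ± 4.98 in naive and 104 ± 25.6 and 115 ± 15.9 in MI hearts. The ratio of summed MMP to summed TIMP level was 0.699 and 0.726 in naive control, 0.530, 0.625 and 0.620 in naive Vegfc-deficient, 0.753, 0.560 and 0.490 in MI control and 0.688, 0.646 and 0.481 in MI Vegfc-deficient libraries. These ratios overlapped between naive and MI hearts.

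Of the membrane-type enzymes, Mmp14 and Mmp16 rose and Mmp15 fell in both genotypes. Mmp14, the membrane-type MMP that activates pro-MMP2 and cuts fibrillar collagen, was at 18.6 and 16.1 CPM in naive control and at 14.2, 11.5 and 19.1 CPM in naive Vegfc-deficient libraries. It was at 128, 159 and 238 CPM in MI control and at 136, 327 and 206 CPM in MI Vegfc-deficient libraries. The lowest MI library lay far above the highest naive library, with a log2 fold change of 3.33 ± 0.42 (adjusted p = 3.42e-04) in control and 3.89 ± 0.37 (adjusted p = 4.69e-05) in Vegfc-deficient hearts. Mmp16, another membrane-type enzyme, ranged from 1.96 to 2.44 CPM among naive libraries and was at 16.4, 9.74 and 23.0 CPM in MI control and at 10.3, 27.8 and 15.7 CPM in MI Vegfc-deficient libraries. This was a log2 fold change of 3.05 ± 0.50 (adjusted p = 9.74e-04) and 3.03 ± 0.42 (adjusted p = 2.40e-04).

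Mmp15, a further membrane-type enzyme, was the only Mmp gene called lower. It was at 53.9 and 43.8 CPM in naive control, at 34.8, 41.8 and 36.5 CPM in naive Vegfc-deficient, at 18.2, 14.8 and 8.04 CPM in MI control and at 17.5, 11.2 and 18.3 CPM in MI Vegfc-deficient libraries. Naive and MI libraries did not overlap, and as for Timp4, M40 and M900 had the lowest values. Mmp15 fell by 1.84 (SE 0.30, adjusted p = 0.00104) on the log2 scale in control and by 1.27 (SE 0.28, adjusted p = 0.00334) in Vegfc-deficient hearts. The cardiomyocyte marker sum moved with it, and its part was not tested. Mmp17, anchored to the membrane by a lipid, had log2 fold changes of 1.65 ± 0.67 and 1.39 ± 0.59 that did not pass the test (adjusted p = 0.0639 and 0.0650). It passed in control hearts without M006 or M35 (adjusted p = 0.0269 and 0.0477) and in Vegfc-deficient hearts without M006, M35 or M40 (adjusted p = 0.0389, 0.0295 and 0.0272).

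Mmp2, gelatinase A and the protease most abundant per kilobase in all 4 groups, was at 193 and 187 CPM in naive control and at 108, 133 and 146 CPM in naive Vegfc-deficient libraries. It was at 594, 587 and 638 CPM in MI control and at 864, 945 and 592 CPM in MI Vegfc-deficient libraries. The MI Vegfc-deficient libraries M35 and M900 were the highest, whereas M913 lay within the range of the MI controls. Its log2 fold change was 1.67 ± 0.23 (adjusted p = 4.84e-04) in control and 2.63 ± 0.21 (adjusted p = 3.22e-05) in Vegfc-deficient hearts. Mmp23, a membrane-tethered enzyme without the usual haemopexin domain, was at 23.8 to 34.99 CPM in naive libraries, at 133, 112 and 188 CPM in MI control and at 85.4, 134 and 151 CPM in MI Vegfc-deficient libraries. It rose by 2.41 ± 0.30 (adjusted p = 3.26e-04) and 2.08 ± 0.26 (adjusted p = 1.29e-04) on the log2 scale. Mmp11, stromelysin 3, rose less: from 7.75 to 12.1 CPM in naive libraries to 27.7, 20.8 and 26.5 CPM in MI control and 25.0, 29.9 and 23.9 CPM in MI Vegfc-deficient libraries, with log2 fold changes of 1.25 ± 0.22 (adjusted p = 0.00125) and 1.42 ± 0.19 (adjusted p = 1.89e-04). The gene Chchd10 on the other strand overlaps Mmp11, and whether the counting used strand is not given in the sources used here. Chchd10 was at 724.5 to 883 CPM in naive and 17.5 to 165 CPM in MI libraries, and its part in the Mmp11 values was not tested.

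The collagenases and stromelysins of the Mmp cluster on chromosome 9 gave 1 call among 5 members in control hearts (Mmp8) and 3 in Vegfc-deficient hearts (Mmp8, Mmp10 and Mmp27). These calls were all higher in MI, beside 26.3% of all genes in control and 30.0% in Vegfc-deficient hearts. The members in this cluster are Mmp13 (7272514 to 7283331), Mmp3 (7445822 to 7455975), Mmp10 (7502352 to 7510240), Mmp8 (7558456 to 7568485) and Mmp27 (7571396 to 7581885), all on the + strand of GRCm38. Mmp13, a collagenase, was at 6.05 to 13.2 CPM in naive and 2.29 to 10.4 CPM in MI libraries, with log2 fold changes of -0.49 ± 0.67 and -0.56 ± 0.60 (adjusted p = 0.557 and 0.445). Its highest value was in M149. Mmp3, stromelysin 1, had log2 fold changes of 0.64 ± 0.32 and 0.56 ± 0.28 that did not pass the test (adjusted p = 0.120 and 0.102), and without M45 it passed in control hearts (1.25 ± 0.36, adjusted p = 0.0281).

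The promoters of Mmp13, Mmp3 and Mmp10 are shown because they are the members that held the AP-1 motif, and that of Timp1, which rose, is shown beside them. Sequences came from RefSeq (GRCm38.p6), 250 bases before each start, 5′ to 3′ on the gene's strand, and capitals mark the AP-1 motif TGANTCA (bound by Fos and Jun factors) and the TATAAA motif. Both were searched on both strands, the AP-1 motif being its own reverse complement, and the 2 motifs do not overlap in these windows. In this order they lie at chr9:7272264-7272513, chr9:7445572-7445821 and chr9:7502092-7502341 and chrX:20869916-20870165.
Mmp13: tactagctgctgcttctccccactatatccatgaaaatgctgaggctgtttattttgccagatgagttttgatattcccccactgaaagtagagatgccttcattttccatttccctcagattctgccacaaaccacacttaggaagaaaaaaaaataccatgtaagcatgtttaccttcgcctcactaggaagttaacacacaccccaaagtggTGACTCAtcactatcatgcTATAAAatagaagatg
Mmp3: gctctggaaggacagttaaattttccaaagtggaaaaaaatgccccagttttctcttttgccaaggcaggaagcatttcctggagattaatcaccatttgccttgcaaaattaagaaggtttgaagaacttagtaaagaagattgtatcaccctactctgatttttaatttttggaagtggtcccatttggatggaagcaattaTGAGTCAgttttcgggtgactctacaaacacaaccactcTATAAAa
Mmp10: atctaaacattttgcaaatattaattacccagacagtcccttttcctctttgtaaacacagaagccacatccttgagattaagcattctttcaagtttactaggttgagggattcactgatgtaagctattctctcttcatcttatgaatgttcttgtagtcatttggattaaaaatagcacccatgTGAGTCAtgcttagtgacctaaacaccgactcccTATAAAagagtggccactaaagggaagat
Timp1: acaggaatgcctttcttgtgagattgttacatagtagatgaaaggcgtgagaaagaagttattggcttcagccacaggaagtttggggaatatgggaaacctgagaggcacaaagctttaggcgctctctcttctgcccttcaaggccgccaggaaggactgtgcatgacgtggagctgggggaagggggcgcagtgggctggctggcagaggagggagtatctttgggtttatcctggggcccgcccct
The AP-1 motif lay 35, 46 and 63 bases and TATAAA 16, 7 and 29 bases before the start in Mmp13, Mmp3 and Mmp10, and the Timp1 window held neither. Promoters were found for 23 of 37 members (24 promoters), of which 3 held the AP-1 motif and 4 held TATAAA. Over all 32851 promoters of the table, the same window held the AP-1 motif in 6.75%, TATAAA in 12.4% and both in 1.21%. Over the cluster, members and genes with too few counts together, 7 of 9 genes had the AP-1 motif, Mmp8 and Mmp27 being those without. A match is a description of letters and not a site, and the rest of the members had no AP-1 match in this window or no promoter in the table.

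Mmp8, the neutrophil collagenase, was called higher in both genotypes, from 0.363 to 1.37 CPM in naive to 1.47 to 13.5 CPM in MI libraries. Its log2 fold change was 3.10 ± 1.02 (adjusted p = 0.0278) in control and 2.97 ± 0.84 (adjusted p = 0.0116) in Vegfc-deficient hearts. The call in control hearts was lost without M40, M44 or M45 (adjusted p = 0.0714, 0.122 and 0.137) and that in Vegfc-deficient hearts without M900 (adjusted p = 0.0534). Mmp27 passed in Vegfc-deficient but not in control hearts, with log2 fold changes of 0.54 ± 0.41 (adjusted p = 0.294) in control and 1.66 ± 0.38 (adjusted p = 0.00405) in Vegfc-deficient hearts, and the interaction did not pass (adjusted p = 0.618). Mmp10, stromelysin 2, had 1 count in naive control and 45 in MI control, a ratio of 13.3 (95% exact counting interval 2.26 to 535.9, counting error only), which did not pass the test (adjusted p = 0.195). In Vegfc-deficient hearts it was at 0 in all 3 naive libraries and at least 8.04-fold higher in MI, taking 3 counts over the group as the floor (adjusted p = 0.0499), and M35 of the MI libraries was also at 0. That call was lost without any one of M149, M150, M34, M38, M44, M45, M900 and M913 (adjusted p from 0.0633 to 0.112).

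Among the remaining Mmp genes, Mmp9, gelatinase B of neutrophils and macrophages, did not pass in either genotype (log2 fold change -0.84 ± 0.84 and 0.80 ± 0.75, adjusted p = 0.422 and 0.383). It was at 3.43 to 5.62 CPM in naive and 0.754 to 15.2 CPM in MI libraries, with M900 the highest. Without M40, Mmp9 passed as lower in control hearts (log2 fold change -2.16 ± 0.73, adjusted p = 0.0379). Mmp25, a leukocyte enzyme, was called higher in control hearts, where it had 1 count in naive and 159 in MI libraries (ratio 46.9, 95% exact counting interval 8.30 to 1864), of which 132 were in M38, and the call was lost without M44 (adjusted p = 0.0844). In Vegfc-deficient hearts its log2 fold change was 2.01 ± 1.04 (adjusted p = 0.119), and without M38 it passed there as well (1.97 ± 0.59, adjusted p = 0.0173). Mmp28, epilysin, had log2 fold changes of 1.02 ± 0.43 (adjusted p = 0.0686) and 1.30 ± 0.37 (adjusted p = 0.0126), and passed in control hearts too without M34 (adjusted p = 0.0472). Mmp19 was at 14.9 and 14.3 CPM in naive control, at 26.3, 3.75 and 5.62 CPM in naive Vegfc-deficient (M149, M150, M34), at 19.4, 18.4 and 25.2 CPM in MI control and at 25.7, 37.2 and 26.5 CPM in MI Vegfc-deficient libraries. M149 lay within the range of the MI libraries and apart from the other 2 of its group. With it, Mmp19 had a log2 fold change of 1.32 ± 0.55 in Vegfc-deficient hearts (adjusted p = 0.0620), and without it 2.65 ± 0.26 (adjusted p = 1.54e-04). The gene Tmem198b on the other strand, at 3.75 to 15.9 CPM, overlaps Mmp19.

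Of the 17 Adamts genes, 8 were higher in both genotypes, beside 21.2% of all genes. Adamts2, the main procollagen N-proteinase, which removes the N-propeptide of fibrillar procollagens, was the most abundant of them per kilobase after MI. It was at 55.2 and 46.0 CPM in naive control, at 43.7, 63.3 and 53.5 CPM in naive Vegfc-deficient, at 439, 339 and 475 CPM in MI control and at 431, 559.9 and 616 CPM in MI Vegfc-deficient libraries. No naive library came near an MI library, and the log2 fold change was 3.04 ± 0.26 (adjusted p = 1.07e-04) in control and 3.32 ± 0.22 (adjusted p = 1.99e-05) in Vegfc-deficient hearts. Of its relatives with the same activity, Adamts14 had log2 fold changes of 0.94 ± 0.49 and 1.05 ± 0.44 (adjusted p = 0.134 and 0.0614), passing in Vegfc-deficient hearts without M006, M34 or M40 (adjusted p = 0.0439, 0.0137 and 0.0424), and Adamts3 had -0.49 ± 0.47 (adjusted p = 0.405) and 1.17 ± 0.44 (adjusted p = 0.0402). The call for Adamts3 was lost without M149 (log2 fold change 0.79 ± 0.38, adjusted p = 0.0983), and also without M34, M35, M45 or M900 (adjusted p = 0.0571, 0.104, 0.0501 and 0.0808).

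Among genes of the enzymes known to act on fibrillin microfibrils, Adamts6 was at 1.52 and 2.63 CPM in naive control, at 2.745, 3.63 and 4.07 CPM in naive Vegfc-deficient, at 29.0, 18.8 and 29.1 CPM in MI control and at 22.0, 25.9 and 17.6 CPM in MI Vegfc-deficient libraries. This gave log2 fold changes of 3.62 ± 0.34 (adjusted p = 1.38e-04) and 2.64 ± 0.27 (adjusted p = 5.96e-05). Adamts10 was at 33.0 to 52.7 CPM in naive libraries, at 203, 101 and 196 CPM in MI control and at 127, 138 and 157 CPM in MI Vegfc-deficient libraries. Its log2 fold change was 2.00 ± 0.31 (adjusted p = 7.73e-04) and 1.78 ± 0.27 (adjusted p = 3.54e-04), and in both genes naive and MI libraries did not overlap. Adamts17, of the same branch, had log2 fold changes of 2.89 ± 0.69 (adjusted p = 0.00609) and 3.92 ± 0.62 (adjusted p = 4.88e-04), and its call in control hearts was lost without M44 (adjusted p = 0.0510).

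Adamts12, which cuts COMP, was at 9.37 and 6.16 CPM in naive control, at 5.20, 6.66 and 9.196 CPM in naive Vegfc-deficient, at 60.1, 59.6 and 130.4 CPM in MI control and at 51.2, 106.6 and 75.1 CPM in MI Vegfc-deficient libraries. M40 and M900, the libraries with the least cardiomyocyte marker RNA, were highest. The log2 fold change of Adamts12 was 3.42 ± 0.48 (adjusted p = 4.82e-04) and 3.46 ± 0.41 (adjusted p = 1.08e-04). Adamts7, the relative that also cuts COMP, had 0.25 ± 0.26 and 0.55 ± 0.24 (adjusted p = 0.443 and 0.0664), and passed in Vegfc-deficient hearts without M006, M34 or M40 (adjusted p = 0.0459, 0.0343 and 0.0398). Adamts16 was at 0 in both naive control libraries, at 0.0981, 0.121 and 0.407 CPM in naive Vegfc-deficient, at 5.54, 10.7 and 15.2 CPM in MI control and at 7.99, 22.5 and 7.17 CPM in MI Vegfc-deficient libraries. It was at least 81.8-fold higher in MI control than in naive control hearts, with 3 counts over the group as the floor (adjusted p = 6.36e-04), and its log2 fold change in Vegfc-deficient hearts was 5.76 ± 0.76 (adjusted p = 2.52e-04).

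The proteoglycan-cutting enzymes were split. Adamts4, aggrecanase 1, was at 0.0981 to 0.484 CPM in naive libraries, at 5.49, 4.09 and 6.35 CPM in MI control and at 3.47, 12.2 and 7.29 CPM in MI Vegfc-deficient libraries, with log2 fold changes of 4.05 ± 0.69 (adjusted p = 0.00119) and 4.53 ± 0.59 (adjusted p = 1.68e-04). Adamts8 rose by 2.07 ± 0.44 (adjusted p = 0.00347) and 2.69 ± 0.40 (adjusted p = 3.22e-04) on the log2 scale. Adamts1, Adamts5, Adamts9, Adamts15 and Adamts20, the other proteoglycan-cutting members, did not pass in either genotype, and their log2 fold changes lay between -0.42 and 1.12. Without M913, Adamts15 passed as higher in Vegfc-deficient hearts (1.44 ± 0.45, adjusted p = 0.0248). Adamts5, aggrecanase 2, stood at 70.4 to 101 CPM in naive and 47.0 to 94.0 CPM in MI libraries, so its groups overlapped. Per kilobase of exon in naive control hearts, Adamts5 stood at 8.33 and Adamts4 at 0.0655 CPM. Adamts19 had -0.94 ± 0.73 and -1.06 ± 0.70 (adjusted p = 0.308 and 0.212), and without M35 it passed as lower in Vegfc-deficient hearts (-2.06 ± 0.67, adjusted p = 0.0242).

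**Figure D4:**
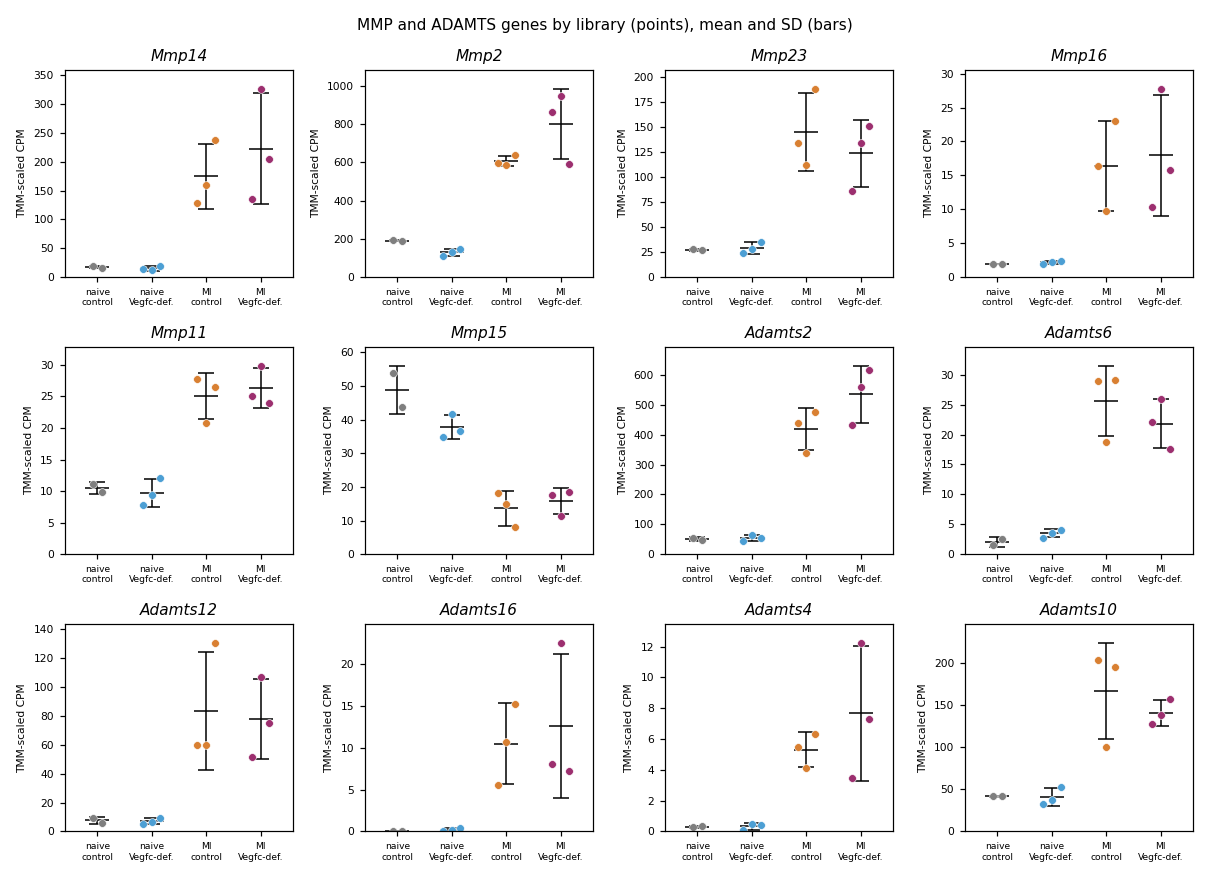
CPM of the 6 Mmp and 6 Adamts genes with the smallest p-values in MI against naive, by library (points), with group mean and SD, on linear axes from 0. Naive and MI libraries do not overlap in any of the 12 panels, and Mmp15 is the only one that is lower after MI.

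Naive and MI libraries did not overlap in 21 of the 37 members. In 19 (51.4%) all 6 MI libraries lay above all 5 naive ones, beside 24.5% of all genes, and in 2 (5.41%) below, beside 24.2%. The 19 include Mmp8, Mmp25, Adamts4 and Adamts16, which the filter kept only through the MI libraries, so their place above was favoured by it. Genes with such a symbol but too few counts were Mmp1a, Mmp1b, Mmp20 and Mmp21, at 0 counts in all 11 libraries, Mmp7 and Adamts13 with 8 counts in all, Mmp24 with 10 and Adamts18 with 32. Just outside the rule, Adamts18 reached 10 counts in 1 library, and just inside it, Mmp10 reached 10 counts in 3. A difference in the genes with too few counts was not detectable at this depth.

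After MI, the genotypes were compared directly, which is the question of the study. This comparison called 0 of 37 members by edgeR's quasi-likelihood test, beside 0% of all genes. At an unadjusted p under 0.05 it held 3 members (Timp3, Mmp3 and Adamts3, 8.11%) beside 7.94% of all genes. Without M149 these were 4 members, Mmp19 being added (0.50 ± 0.20, unadjusted p = 0.0312, adjusted p = 0.571), beside 8.43% of all genes. DESeq2's Wald test gave an adjusted p to 15 of the members and called 1 of them, Timp3, beside 0.787% of all genes with an adjusted p, and limma-voom called 0. The lowest Vegfc-deficient library exceeded the highest control library in 5 members (13.5%), beside 5.99% of all genes, and the reverse held in 0 members, beside 6.12% of all genes. These 5 were Timp3, Mmp3, Mmp19, Mmp27 and Adamts3. The median log2 fold change of the 37 members was 0.20, with 26 higher and 11 lower, where that of all genes was -0.0073.

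Timp3 had the smallest unadjusted p of the 37 in this comparison. At 318 to 345 CPM in the Vegfc-deficient and 159 to 239 CPM in the control libraries, its log2 fold change was 0.73 ± 0.17 (unadjusted p = 0.00149, adjusted p = 0.584). Leaving out each library in turn gave log2 fold changes from 0.61 to 0.87 with adjusted p from 0.3002 to 0.822. DESeq2 gave 0.73 ± 0.17 with an adjusted p of 0.00994. The naive genotypes did not separate for Timp3 (log2 fold change 0.0023, adjusted p = 1).

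Adamts3, which besides procollagen II is known to cut pro-VEGFC into its active form, was at 1.29, 1.69 and 1.98 CPM in MI control and at 4.17, 3.35 and 2.48 CPM in MI Vegfc-deficient libraries. The naive libraries spread over 0.588 to 2.81 CPM, M149 being the lowest. Its log2 fold change between the MI groups was 1.0 ± 0.41 (unadjusted p = 0.0355, adjusted p = 0.610). Mmp3 was at 15.9, 9.77 and 13.3 CPM in MI control and at 22.2, 24.9 and 17.8 CPM in MI Vegfc-deficient libraries, a log2 fold change of 0.74 ± 0.27 (unadjusted p = 0.0213, adjusted p = 0.584). In naive hearts Mmp3 was at 5.44 and 11.2 CPM in control and at 12.6, 17.9 and 13.4 CPM in Vegfc-deficient libraries, so the Vegfc-deficient libraries lay above the controls with and without MI. Mmp19 had 0.50 ± 0.53 (adjusted p = 0.844). Mmp27 was at 2.96, 2.67 and 3.23 CPM in MI control and at 3.29, 5.28 and 3.27 CPM in MI Vegfc-deficient libraries, with a log2 fold change of 0.42 ± 0.35 (adjusted p = 0.794), and the lowest Vegfc-deficient value was 3.27 CPM where the highest control value was 3.23 CPM. In naive libraries it was at 1.34 and 2.72 CPM in control and at 1.76, 1.09 and 0.895 CPM in Vegfc-deficient hearts.

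**Figure D5:**
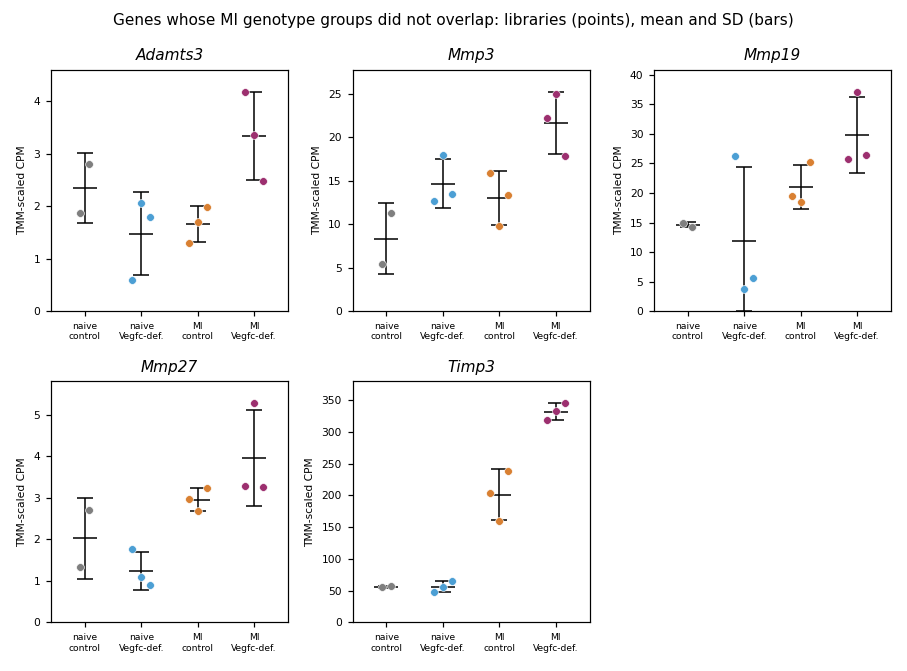
CPM of Adamts3, Mmp3, Mmp19, Mmp27 and Timp3, the members whose MI genotype groups did not overlap, by library (points), with group mean and SD, on linear axes from 0. In each panel the MI Vegfc-deficient points lie above the MI control points; M149 (26.3 CPM) stands apart from its group for Mmp19.

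In naive hearts, the genotypes differed in 0 members by edgeR and in 0 by DESeq2 or limma-voom. Over all genes, edgeR called 0, DESeq2 14 and limma-voom 6. By edgeR, 3 members (Mmp2, Mmp3 and Adamts6, 8.11%) had an unadjusted p under 0.05 beside 3.38% of all genes. Mmp2 was lower in naive Vegfc-deficient hearts with a log2 difference of -0.56 (unadjusted p = 0.0286), and -0.44 without M149 (unadjusted p = 0.0924). Mmp3 and Adamts6 were higher with differences of 0.81 and 0.75 (unadjusted p = 0.0310 and 0.0482), and 0.91 and 0.90 without M149 (unadjusted p = 0.0307 and 0.0314). Without M149, 3 members (Mmp3, Mmp19 and Adamts6) had an unadjusted p under 0.05 beside 6.65% of all genes, and Mmp19 had the difference -1.62 ± 0.27 (unadjusted p = 1.84e-04, adjusted p = 0.0802), against -0.29 with it (adjusted p = 1).

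Whether the effect of MI differed between the genotypes was tested by the interaction, which called 0 members by edgeR, 0 by DESeq2 and 0 by limma-voom. Over all genes, edgeR and limma-voom called 0 and DESeq2 called 58. By edgeR, 4 members (Mmp2, Timp3, Adamts3 and Adamts6, 10.8%) had an unadjusted p under 0.05 beside 8.30% of all genes. The rise of Mmp2 was larger in Vegfc-deficient hearts by 0.96 ± 0.29 on the log2 scale (unadjusted p = 0.00845, adjusted p = 0.543), and that of Timp3 by 0.72 ± 0.25 (unadjusted p = 0.0167, adjusted p = 0.548). That of Adamts6 was smaller, with an interaction of -0.98 ± 0.41 (unadjusted p = 0.0373, adjusted p = 0.569). Without M149, 6 members (16.2%) had an unadjusted p under 0.05 beside 11.7% of all genes, the same 4 and Mmp19 and Mmp27. Mmp19 then had an interaction of 2.12 ± 0.34 (unadjusted p = 1.17e-04, adjusted p = 0.102), against 0.80 ± 0.82 with M149 (adjusted p = 0.815), and Mmp27 one of 1.46 ± 0.57 (unadjusted p = 0.0296, adjusted p = 0.369). With 2 to 3 libraries a group, these p-values do not show that the genotypes respond alike.

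Other genes of matrix turnover were counted in the same way, and each count is to be read beside the 26.3% (control) and 30.0% (Vegfc-deficient) of all genes that were higher and the 24.1% and 27.7% that were lower. Of 14 genes for activators and other inhibitors, 11 were tested, and 6 were higher and 1 lower in control hearts, 7 and 1 in Vegfc-deficient hearts. Bsg (basigin), a membrane protein known to induce MMP expression, had the smallest log2 fold change, falling by 1.57 (SE 0.27, adjusted p = 0.00125) and by 1.501 (SE 0.25, adjusted p = 6.61e-04) on the log2 scale. Of 12 matrix substrate genes, 10 and 11 were higher, from the proteoglycan gene Acan (7.32 ± 1.65, adjusted p = 0.00476, in control hearts) and Comp (5.94 ± 0.40, adjusted p = 1.99e-05, in Vegfc-deficient hearts) at the top to Vwf at -0.024 ± 0.17 (adjusted p = 0.915, control) and Dcn at 0.13 ± 0.26 (adjusted p = 0.698, Vegfc-deficient). A list of 6 cartilage markers that shares Acan and Comp with the substrates summed to 6.25 to 18.7 CPM in naive and 240 to 610 CPM in MI libraries, with Col2a1, Matn1 and Col9a1 at 0 in at least 1 library, and its part was not tested.

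Beside the same shares of all genes, of 5 genes for procollagen processing, 4 were tested and 3 were higher in each genotype. The largest were Tll1 in control (2.58 ± 0.41, adjusted p = 8.16e-04) and Bmp1, the procollagen C-proteinase, in Vegfc-deficient hearts (2.65 ± 0.22, adjusted p = 3.59e-05), and Pcolce2 had the smallest (0.16 ± 0.29, adjusted p = 0.678, and 0.60 ± 0.26, adjusted p = 0.0694). Of 7 ADAMTS-like genes, which resemble ADAMTS enzymes without a protease domain, 4 were higher and 1 lower in control and 5 higher and 1 lower in Vegfc-deficient hearts, from Adamtsl2 (2.90 ± 0.57, adjusted p = 0.00231) to Papln (-1.24 ± 0.71, adjusted p = 0.170) in control and from Adamtsl3 (2.69 ± 0.42, adjusted p = 4.29e-04) to Adamtsl5 (-0.61 ± 0.19, adjusted p = 0.0185) in Vegfc-deficient hearts. Of 11 ADAM genes, membrane proteases that shed cell surface proteins, 10 were tested, with 4 higher and 0 lower in control and 4 higher and 1 lower in Vegfc-deficient hearts. Adam12 had the largest fold change (4.21 ± 0.58, adjusted p = 4.61e-04, and 3.85 ± 0.47, adjusted p = 1.28e-04) and Adam22 the smallest (-0.33 ± 0.33, adjusted p = 0.421, and -0.96 ± 0.29, adjusted p = 0.0176). Between the MI genotypes and between the naive genotypes, 0 genes of these 5 lists were called.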

How the data were processed

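RNA of 11 left ventricles was sequenced after TruSeq Stranded mRNA preparation. The authors deposited raw read counts per Ensembl gene. The submitters' processing notes name cutadapt 1.13, STAR, HTSeq 0.6.1p1, DESeq2 1.14.1 and the build mm10, without roles or settings, and whether HTSeq used strand is not given in the sources used here. Every row of the files named an Ensembl gene. Symbols, coordinates (GRCm38) and exon lengths came from GENCODE M21, and 24991 of 25006 IDs had a symbol. Promoters came from RefSeq.

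Counts were analysed in R 4.3.3 with edgeR 4.0.16: filterByExpr by group (14779 genes kept), TMM factors and 1 quasi-likelihood fit of all 11 libraries and 4 groups, with Benjamini-Hochberg adjustment over all genes tested and a threshold of 0.05. The SE is the fold change divided by the square root of the F statistic. Level per kilobase is CPM divided by the union of exons. Alternatives were DESeq2 1.42.0, limma 3.58.1 (voom with sample weights), other scalings, filters and thresholds, the compared groups alone, the longest transcript as length, and fits that drop 1 library at a time. The edgeR, DESeq2 and limma fits were tested on simulated data for MI against naive in control hearts and for the genotypes after MI. Values per library are given for the 4 Timp genes, the 6 Mmp and 6 Adamts genes with the smallest p-values (sum of ranks over both genotypes) in MI against naive and members whose MI genotype groups did not overlap. The members and lists were chosen with earlier results of these data known. Mice of a group are separate animals, 1 library each, and no sample was left out or imputed. Some results on genes outside the member families are not reported here.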

Additional observations from a re-analysis of the deposited data

How the results depend on the processing

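Of the 5 comparisons, the number of members called stayed within 1.5 times its value in all alternatives except 1: for MI Vegfc-deficient against MI control, the DESeq2 Wald test called 1 member, Timp3, where edgeR called 0. In control hearts the count of members changed by MI ran from 17 to 24 (17 to 21 when each library was left out), and in Vegfc-deficient hearts from 19 to 31 (20 to 26). The highest counts, 24 and 31, came from scaling by library totals, which moved the median log2 fold change of all genes from 0.13 to 0.57 in control and from 0.10 to 0.59 in Vegfc-deficient hearts, and the share of all calls that were higher from 52.1% to 76.2% and from 52.0% to 75.5%. The members' medians were then 1.78 and 2.14, that is before subtracting those shifts. Single fold changes were followed only for the genes whose values per library are given. Many of these genes were picked for small p-values in these same data, which favours keeping the call. Of these 45 fold changes, followed through 897 alternative values, 877 kept direction and side of the threshold, 0 reversed, 10 lost the call and 10 gained it. Values that lost it were Adamts3 in Vegfc-deficient hearts (9 alternatives) and Timp4 in control hearts at the stricter threshold of 0.01. Mmp3, Mmp19 and Timp3 gained calls. Members outside this set also changed when a library was left out, as given above: Mmp8 and Mmp10, among others, lost calls. Mmp17 and Adamts14, among others, gained them. A count minimum of 5 or 20 in the member rule gave 38 or 36 members in place of 37. Without M149, 20 of the 20 calls in control and 21 of the 23 in Vegfc-deficient hearts were kept, Adamts3 and Mmp10 were lost and Mmp19 was gained. Leaving out 1 naive control library leaves 1, whose spread is then taken from the other groups. With the longest transcript as length, 10 of 12 summed levels moved by more than the SD, for MMP 116.5 in place of 99.4 CPM per kilobase in naive control hearts. No paired analysis was possible because the groups share no replicate numbers.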

Other observations

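Mmp8 was at 1.78, 4.80 and 8.55 CPM in MI control (M006, M38, M40) and at 1.47, 13.5 and 6.17 CPM in MI Vegfc-deficient libraries (M35, M900, M913). Mmp9 was at 0.754, 1.39 and 5.98 CPM and at 3.82, 15.2 and 3.27 CPM in the same libraries. The sum of 8 neutrophil markers was 47.4, 62.5 and 365 CPM in MI control and 36.8, 191 and 56.0 CPM in MI Vegfc-deficient libraries, with M40 and M900 the highest. In naive libraries it was 20.4 and 36.7 CPM in control and 111, 74.4 and 100.1 CPM in Vegfc-deficient hearts (M149, M150, M34). These Vegfc-deficient sums exceeded those of 4 of the 6 MI libraries, while Mmp8 was at 0.363 to 1.37 CPM in all naive libraries. Most of them came from S100a8 (25.6, 25.4 and 24.9 CPM) and S100a9 (58.4, 38.6 and 60.7 CPM). Csf3r of the same list was at 19.7, 3.87 and 5.78 CPM in these 3 libraries and at 14.3 to 28.7 CPM in MI libraries. In the marker list, Ly6g, Mpo and Cd177 were at 0 in at least 1 library each. Mmp25 was highest in M38 (4.46 CPM, where the other MI libraries were at 0.411 to 0.797 CPM). M38 also had the highest sum of 5 T cell markers (126 CPM, where the other MI libraries were at 11.4 to 23.6 CPM). The part of neutrophil or T cell content in these values was not tested.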
